A study of Mus musculus with 3 samples.

Results

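Open chromatin far from gene starts was described in hair follicle stem cells (HFSCs) of mice, as 10911 regions that carried a peak in each of 3 Omni-ATAC-seq libraries. Omni-ATAC-seq uses the Tn5 transposase to cut open DNA and add sequencing adapters, so reads pile up where chromatin is accessible. Intervals of the 3 deposited peak lists that shared at least 1 base were merged on chromosomes 1 to 19, without a score filter, which gave 149028 regions. Of these, 19078 held a peak of every library, and 10911 of those (57.2%, 95% Wilson interval 56.5 to 57.9) were centred more than 1500 bases from any start site of a protein-coding gene. The number and the share depended on the peaks admitted. With peaks past a −log10 q of 2 in every library there were 6141 such regions (47.9% of the shared ones), past 5 there were 2459 (35.9%), and without Msx2-KO replicate 1, the library with the fewest tags, there were 21193. The 10911 are called shared distal regions here, and the remaining 8167 are called shared promoter regions. They were chosen by the presence of a peak in all 3 libraries, so their presence, and any excess of their signal over regions found in fewer libraries, describes the choice and was not tested.

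The cells were sorted from dorsal skin as CD34+CD49f+Sca-1- cells of 6-month-old mice whose follicles were in telogen, when hair growth rests. There was 1 library of hair cycle-matched C57BL/6J animals (Msx2-WT) and there were 2 of animals in which a pMC1-neo cassette inserted upstream of exon 2 disrupts Msx2 in every tissue (Msx2-KO replicates 1 and 2). Nothing in the labels gives the number of animals behind a library. By the labels, the Msx2-KO pair was made as one batch and the Msx2-WT library as a different one, so batch cannot be told apart from genotype. A single Msx2-WT library allowed no test of genotype, and replicate spread could be read only from the Msx2-KO pair. Peaks in the Msx2-KO lists are named with the letters cKO, and in replicate 1 with a library number that its label does not have. The labels were followed. Depth was read as the commonest background at the summits, which was 1.74 tags per counting window in Msx2-WT, against 0.476 (Msx2-KO replicate 1) and 0.790 (Msx2-KO replicate 2), where a tag is 1 counted read end. The lists do not show whether the counting window was the same in every library, and their narrowest peaks differ in width. These backgrounds are therefore a rough guide to depth.

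Accessible regions away from promoters are often enhancers, stretches of DNA that bind transcription factors and act on promoters across long distances, sometimes past other genes. In epithelial stem cells such regions are known to carry sites for AP-1 (dimers of JUN and FOS proteins), TEAD, NFI, p63 and GRHL factors, and in the bulge of the hair follicle for SOX9, LHX2 and NFATC1, which keep the stem cell state. Insulator sites bound by CTCF make up another part of distal open chromatin. The nearest gene is used below as an address, and nothing in these data shows which gene a region acts on. Distances run from the centre of a region to the nearest start of any protein-coding transcript. At a gene with several starts they can therefore refer to different ones, and need not be the distance from its first start.

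The letters under the strongest of these regions are shown first, because they are what the motif counts below refer to. For genes encoding HFSC transcription factors or bulge markers, the region with the highest tag rank near each gene was taken, and 9 windows are shown. Each line gives the Msx2-WT summit with 100 bases to either side on the plus strand, 5′ to 3′, from the RefSeq sequence of GRCm38.p6, and capitals mark matches to any of 19 motifs on either strand.
Trp63 (chr16:25945373-25945573): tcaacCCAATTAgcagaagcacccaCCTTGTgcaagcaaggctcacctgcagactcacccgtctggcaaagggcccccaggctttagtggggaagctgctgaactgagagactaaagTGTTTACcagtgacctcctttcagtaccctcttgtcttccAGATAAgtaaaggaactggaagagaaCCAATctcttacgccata
Tcf7l2 (chr19:55779918-55780118): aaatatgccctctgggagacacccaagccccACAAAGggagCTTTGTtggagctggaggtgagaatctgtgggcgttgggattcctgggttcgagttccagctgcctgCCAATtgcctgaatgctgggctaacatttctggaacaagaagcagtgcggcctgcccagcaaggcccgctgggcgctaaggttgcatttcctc
Nfib (chr4:82283584-82283784): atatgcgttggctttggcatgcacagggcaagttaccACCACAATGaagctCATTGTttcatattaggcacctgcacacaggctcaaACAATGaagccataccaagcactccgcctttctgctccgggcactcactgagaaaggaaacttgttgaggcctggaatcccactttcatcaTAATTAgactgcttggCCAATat
Klf5 (chr14:99391740-99391940): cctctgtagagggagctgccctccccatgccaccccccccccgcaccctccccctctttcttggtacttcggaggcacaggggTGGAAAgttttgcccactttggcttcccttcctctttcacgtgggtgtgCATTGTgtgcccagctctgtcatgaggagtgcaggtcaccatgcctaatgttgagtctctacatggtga
Runx1 (chr16:92631034-92631234): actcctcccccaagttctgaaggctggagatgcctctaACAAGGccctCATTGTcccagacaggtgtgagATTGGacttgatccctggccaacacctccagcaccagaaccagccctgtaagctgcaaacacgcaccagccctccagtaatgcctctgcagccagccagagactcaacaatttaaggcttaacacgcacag
Foxc1 (chr13:31955255-31955455): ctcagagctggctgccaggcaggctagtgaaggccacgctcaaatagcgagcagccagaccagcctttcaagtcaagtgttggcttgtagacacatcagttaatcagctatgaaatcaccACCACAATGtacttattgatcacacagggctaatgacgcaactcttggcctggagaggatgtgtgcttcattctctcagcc
Bmp6 (chr13:38312407-38312607): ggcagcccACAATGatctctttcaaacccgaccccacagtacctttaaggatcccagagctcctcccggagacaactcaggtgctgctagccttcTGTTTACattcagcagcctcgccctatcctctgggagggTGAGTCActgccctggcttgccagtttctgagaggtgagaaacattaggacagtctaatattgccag
Npnt (chr3:132863998-132864198): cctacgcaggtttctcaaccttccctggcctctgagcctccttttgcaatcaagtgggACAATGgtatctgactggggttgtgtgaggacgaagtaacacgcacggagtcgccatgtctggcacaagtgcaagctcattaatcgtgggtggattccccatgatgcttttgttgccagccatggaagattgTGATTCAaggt
Lhx2 (chr2:38377265-38377465): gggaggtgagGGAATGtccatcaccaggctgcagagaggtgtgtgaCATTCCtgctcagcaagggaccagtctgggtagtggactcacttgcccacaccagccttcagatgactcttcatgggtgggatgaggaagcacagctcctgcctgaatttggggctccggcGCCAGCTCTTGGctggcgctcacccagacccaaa

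The Bmp6 window (BMP6 is a signal that holds bulge cells quiescent) held the AP-1 word TGAGTCA, and the Npnt window (nephronectin, a matrix protein of the bulge) held TGATTCA. The Lhx2 window held the TEAD motif GGAATG and its reverse complement CATTCC, besides the CTCF word. A SOX motif, ACAANG, stood in 8 of the 9 windows shown, AP-1 in 2 and NFY (CCAAT) in 4. Over all shared distal regions, 37.7% of the Msx2-WT windows held the SOX motif and 15.7% the AP-1 motif. The Trp63 window was intergenic, past the end of the gene and 143.5 kb downstream of its nearest annotated start. Trp63 encodes p63, the factor that specifies stratified epithelium. This window had 76 tags at the summit in Msx2-WT, against 22 (Msx2-KO replicate 1) and 46 (Msx2-KO replicate 2). The Nfib window lay 221.7 kb from the nearest annotated start of Nfib, an NFI factor of the bulge, and was also past the end of the gene. It had 45, 17 and 40 tags in the same order. The Runx1 window was in intron 6 of Runx1, a regulator of stem cell activation, with 44, 16 and 27 tags, and the Tcf7l2 window was in intron 3 of Tcf7l2, a nuclear partner of beta-catenin, with 33, 19 and 34 tags. The Klf5 summits of Msx2-WT and Msx2-KO replicate 2 were 763 bases apart, so that window does not reach the second of these summits. The Msx2-KO replicate 1 summits of Trp63 and Lhx2 also lay outside their windows, 107 and 118 bases from the Msx2-WT summit. So did the Msx2-KO replicate 2 summits of Tcf7l2 and Runx1, at 123 and 121 bases.

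Shared distal regions were more often intronic and nearer to genes than the ground they could have occupied. Introns of protein-coding genes held 41.5% of them (4529 regions, 95% Wilson interval 40.6 to 42.4), exons 2.72% (297) and intergenic sequence 55.8% (6085). On a grid of every 1000th base of the same chromosomes and more than 1500 bases from a start site (2321399 positions), 36.6% of positions were intronic, 2.49% exonic and 60.9% intergenic. The intronic excess was lost with stronger peaks, since past a −log10 q of 5 the intron share was 36.4%, at the level of the grid. The median distance to the nearest protein-coding start site was 38849 bases, with quartiles of 15107 and 98679, compared with 67504 on the grid. The regions reached as far as 2124724 bases from any start site, and 24.6% of them lay more than 100 kb away, compared with 41.7% of the grid. The largest class, 40.0%, was 10 to 50 kb from a start site, and 6.86% lay between 1.5 and 5 kb. Regions lay downstream of the nearest start site in 55.2% of cases, and 17.3% of the intergenic ones fell inside a gene of another type, such as a long non-coding RNA gene. Intervals on these shares cover counting error only, since neighbouring regions are not independent.

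Place and distance moved with the number of libraries that shared a region. Distal regions with peaks in 2 libraries (15420) had 42.4% in introns and 26.8% beyond 100 kb, close to the shared distal regions. Distal regions of 1 library (107451) had 36.3% in introns and 41.1% beyond 100 kb, beside 36.6% and 41.7% of the grid. Most distal regions of each library were not shared, and the shallowest library had the largest shared part. Shared distal regions were 13.0% of the 83674 distal regions of Msx2-WT, 44.5% of the 24542 of Msx2-KO replicate 1 and 17.4% of the 62808 of Msx2-KO replicate 2. For promoter regions the corresponding shares were 65.7%, 91.5% and 63.3%.

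**Figure D1:**
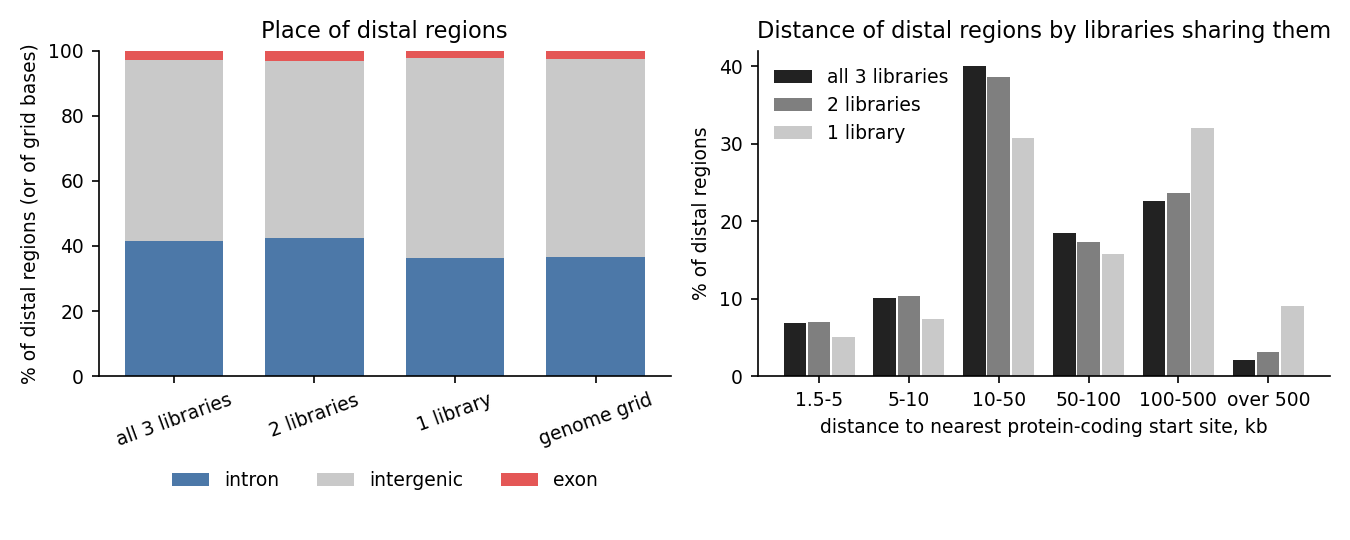
Left, stacked bars of the place of distal regions (percent; intron, intergenic, exon) by the number of libraries sharing them, beside a genome grid of positions over 1500 bases from a start site. Right, percent of distal regions by distance to the nearest protein-coding start site in kb. Regions of all 3 libraries peak at 10 to 50 kb with 40.0%, and regions of 1 library stand closer to the grid in their intron share.

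The limit of 1500 bases cut through a continuous distribution. Just outside it stood a region 1501 bases from a start of Tfap2b (an AP-2 factor) with 15, 17 and 28 tags in Msx2-WT, Msx2-KO replicate 1 and Msx2-KO replicate 2, one at 1502 bases from Kif26b with 8, 4 and 8, and one at 1506 bases from Ccnd2 (cyclin D2) with 27, 7 and 26. Just inside it, and therefore counted as promoters, stood regions at Gm11733 (1492 bases; 13, 4 and 12 tags), Nod2 (1498 bases; 24, 14 and 20) and Epn3 (1499 bases; 33, 8 and 31). The tag numbers on both sides overlapped.

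Start sites of other gene types accounted for part of the set. A total of 831 shared distal regions (7.62%) lay within 1500 bases of the start of a gene that is not protein-coding, of which 292 were at lincRNA genes and 123 at antisense genes. These 831 differed from the rest in base composition and motifs. The SP/KLF motif GGGCGG, the site of SP and KLF factors at CpG-rich promoters, was in 24.8% of their Msx2-WT windows (95% Wilson interval 22.0 to 27.8), against 9.46% (8.91 to 10.1) of the other 10080. In both Msx2-KO libraries the shares were 25.3% against 8.47% and 23.8% against 8.88%. CpG-rich windows, with a G+C content over 55% and an observed over expected CpG ratio over 0.6, made up 22.7% of the 831 and 4.12% of the rest in Msx2-WT.

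Merged regions were compact. Their median width was 1048 bases, 90% of them were between 566 and 1911 bases wide, and 16 were wider than 3000. The peaks inside them had median widths of 531 bases in Msx2-WT, against 690 (Msx2-KO replicate 1) and 893 (Msx2-KO replicate 2). The narrowest of these peaks were 188, 283 and 256 bases wide in the same order. The lower limit of width thus differed between the lists, and these widths are not on one scale. The summits of the libraries lay close together. The median distance was 88 bases from Msx2-WT to Msx2-KO replicate 1, 70 from Msx2-WT to replicate 2, and 83 within the Msx2-KO pair, so the replicate pair stood between both pairs of unlike genotype. At shared promoter regions these medians were 56, 48 and 55 bases. In 6.19% to 7.52% of shared distal regions, depending on the pair, summits were over 500 bases apart. The regions covered 12.2 Mb (0.496% of chromosomes 1 to 19) at 4.43 per Mb, from 3.41 on chromosome 14 to 5.30 on chromosome 10, and neighbours were a median of 61943 bases apart, with 13.5% of neighbours within 10 kb.

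Accessibility at shared distal regions was lower than at shared promoter regions in each library. The median summit held 14 tags in Msx2-WT, against 7 (Msx2-KO replicate 1) and 15 (Msx2-KO replicate 2). Divided by the background of the library, the medians were 8.05, 14.7 and 18.98, compared with 14.4, 23.1 and 31.6 at shared promoter regions, a ratio of 0.560, 0.636 and 0.60. The deposited fold enrichment, which uses the local background, gave ratios of 0.657, 0.786 and 0.748. The quartiles overlapped between both classes in every library. Both Msx2-KO libraries had higher values over background than Msx2-WT at distal and promoter regions alike, so levels are compared below only after scaling.

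**Figure D2:**
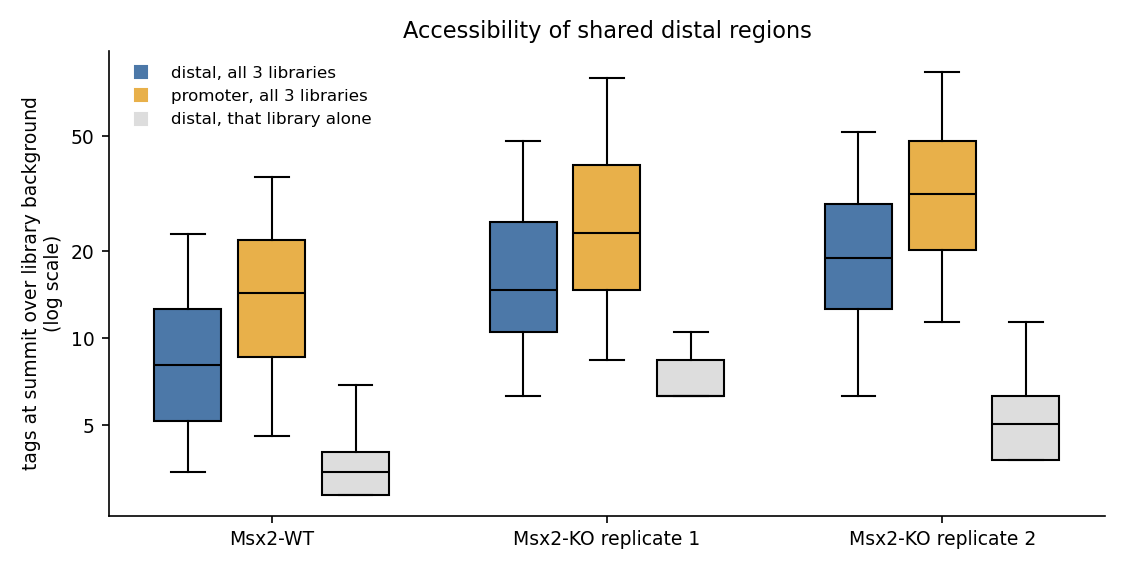
Tags at the summit over the background of the library (log axis), per library, for shared distal regions, shared promoter regions and distal regions of that library alone; boxes are quartiles with the median, whiskers the 5th and 95th percentiles. The distal medians of 8.05, 14.7 and 18.98 lie below the promoter medians of 14.4, 23.1 and 31.6, and the third box of each group is low by the way regions were chosen.

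Many shared distal regions were weak in at least 1 library. The lists hold peaks down to a p-value of 0.01, although the study's methods name a q-value of 0.01. Of the 10911 regions, 6142 (56.3%) passed a q-value of 0.01 in all 3 libraries, 3196 (29.3%) in 2 libraries, 1248 (11.4%) in 1 library and 325 (2.98%) in none. By library, 74.7% passed in Msx2-WT, against 72.7% (Msx2-KO replicate 1) and 91.5% (Msx2-KO replicate 2). The rank order of the regions was closer between the Msx2-KO libraries (Spearman's rho 0.727, across 10899 regions) than between Msx2-WT and Msx2-KO replicate 1 (0.433) or replicate 2 (0.486), where regions share libraries and are not independent. Promoter regions gave 0.854, 0.668 and 0.717 for the same pairs. Since both Msx2-KO libraries were one batch, these values cannot tell genotype from batch.

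Summits of shared distal regions carried motifs of epithelial transcription factors. Each summit window, reaching 100 bases to either side, was searched on both strands and set beside the mean of windows 1000 bases to either side of the same summit, and beside shared promoter summits. The AP-1 motif, TGANTCA, was in 15.7% of windows in Msx2-WT (95% Wilson interval 15.0 to 16.4), against 13.5% (12.9 to 14.1) in replicate 1 of Msx2-KO and 14.5% (13.9 to 15.2) in replicate 2. The flanks held it in 6.06%, 6.07% and 6.12%, and shared promoter windows in 3.27%, 2.68% and 3.11%. Among distal regions seen in 1 library, the share was 7.602% in Msx2-WT, against 6.04% (Msx2-KO replicate 1) and 8.59% (Msx2-KO replicate 2). The AP-1 word was thus 2.22 to 2.59 times as frequent at the summits as beside them in all 3 libraries.

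Other motifs above the flanks were those of GRHL factors (AACCNGTT), which open epithelial chromatin, in 3.46%, 2.71% and 3.13% of windows of the 3 libraries against about 1.51% of flanks, and of NFI factors (TGGC, 5 bases, GCCA), in 1.16%, 1.02% and 1.07% against 0.403%, 0.394% and 0.367%. The p63 word (CATG, 6 bases, and CATG or CTTG) was in 3.13%, 2.62% and 2.84% against 1.85%, 1.75% and 1.90%. TEAD (GGAATG), the DNA-binding partner of the Hippo pathway's YAP, was in 16.5%, 16.1% and 16.5% against 11.1%, 11.1% and 11.0%, and NFAT (TGGAAA) in 27.4%, 27.8% and 28.1% against 18.5%, 18.4% and 18.5%. The CTCF core (CCA, 2 bases, AG, 2 bases, GGC) was in 3.14%, 2.45% and 2.78% against 1.43%, 1.41% and 1.32%. In each of these motifs the summit share exceeded the flank share in every library.

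Motifs of several HFSC factors were about as frequent at summits as around them, with summit shares of 0.912 to 1.05 times the flank shares. RUNX (TGTGGT) was in 14.9%, 14.6% and 14.4% of summit windows against 14.9%, 15.2% and 14.8% of flanks, TCF/LEF (ATCAAAG) in 3.15%, 3.14% and 3.15% against 3.28%, 3.45% and 3.32%, and the word AGATAA of the GATA factors in 11.9%, 10.9% and 10.7% against 11.3%, 11.2% and 11.2%. SOX stood at 37.7%, 38.4% and 38.9% against 37.4%, 36.7% and 37.1%. These words are short, and a match is not a bound site. The homeobox words were slightly above the flanks. The MSX-type word CAATTA was in 8.53%, 9.49% and 9.60% against 7.52%, 7.31% and 7.28%, and the LHX-type word TAATTA in 7.38%, 7.74% and 8.39% against 5.67%, 5.75% and 5.66%. The palindromic SMAD word GTCTAGAC was rare, at 0.330%, 0.376% and 0.275%. The SP/KLF word was in 10.6%, 9.75% and 10.0% of distal windows against 2.94%, 2.91% and 2.68% of flanks, 3.36 to 3.74 times as frequent at the summits, which is more than for AP-1, and in 62.9%, 58.9% and 60.5% of shared promoter windows.

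The position of the words relative to the summit was also counted. In bins of 25 bases, 2.41% of Msx2-WT regions had an AP-1 word centred on the summit, against a mean of 0.830% at 400 to 500 bases from it, a ratio of 2.90. The ratio was 2.28 and 2.82 in the Msx2-KO libraries. SP/KLF was more centred than AP-1 in every library, with ratios of 3.46, 2.87 and 3.20. For CTCF the ratios were 3.49, 1.49 and 2.11, and for the rarer NRF1 word 3.6, 1.52 and 1.74. For GRHL the ratios were 2.52, 1.63 and 2.52, for NFAT 1.72, 1.68 and 1.82, for TEAD 1.51, 1.51 and 1.39, and for TCF/LEF 0.790, 0.749 and 1.01. The MSX-type word had ratios of 1.26, 1.37 and 1.62. AP-1 and GRHL were the least centred in Msx2-KO replicate 1, the library with the fewest tags, whose summits rest on a median of 7 tags. Regions with an AP-1 word at the summit had a median of 8.63 tags over background in Msx2-WT, against 7.48 without it, and 16.8 against 14.7 and 20.2 against 18.98 in the Msx2-KO libraries. These steps are of 1 or 2 tags.

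**Figure D3:**
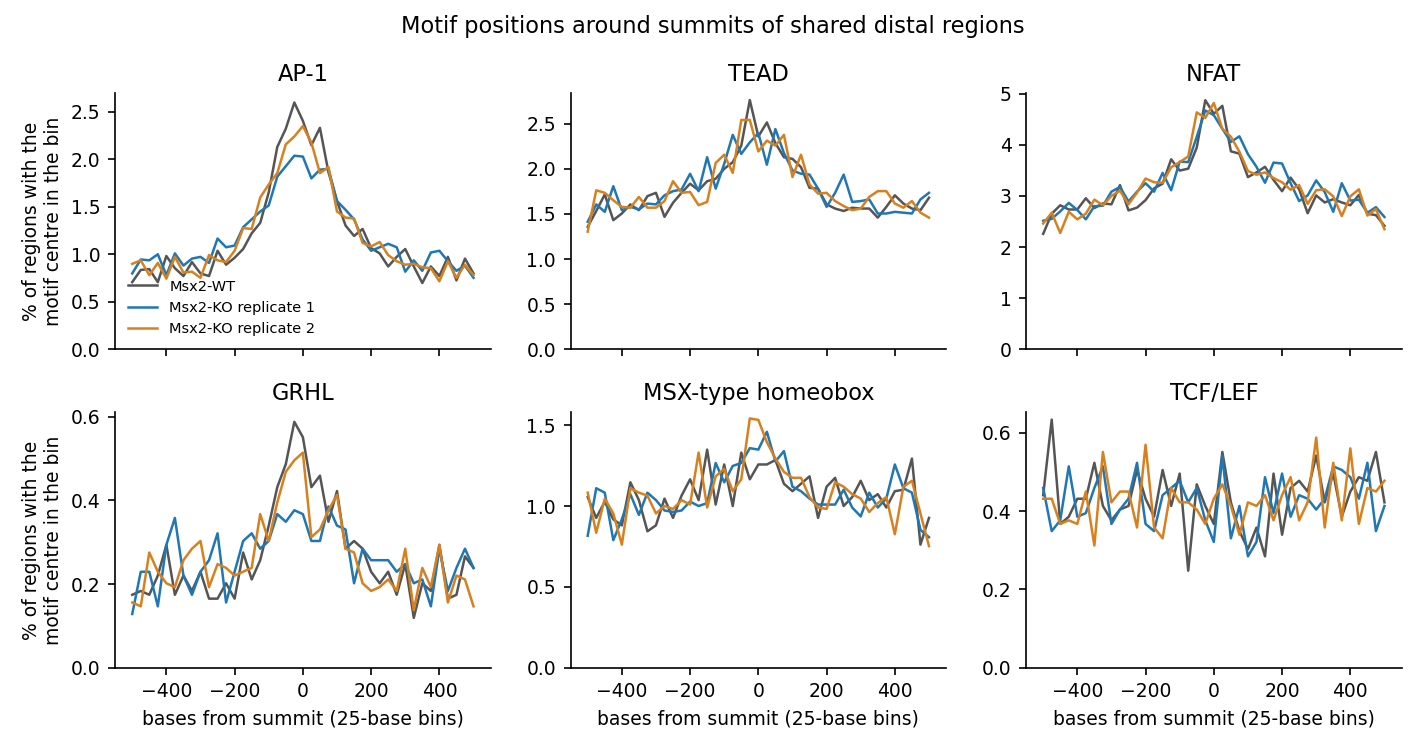
Percent of shared distal regions with the centre of a motif word in each 25-base bin, by distance in bases from the summit of each library, for 6 motifs (axes start at 0). AP-1 rises to 2.41%, 2.03% and 2.35% at the summit of the 3 libraries, GRHL, NFAT and TEAD are higher at the summit than at 400 to 500 bases from it, though in the Msx2-KO libraries the highest bin of TEAD is 50 bases away, and in replicate 1 that of GRHL 75, and TCF/LEF is no higher there, with ratios of 0.790, 0.749 and 1.01.

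Base composition followed the same contrast. The median G+C content of the summit window was 49.8% in Msx2-WT and 49.3% in both Msx2-KO libraries, against 44.8% in the flanks of every library. The observed over expected CpG ratio had a median of 0.240 in Msx2-WT, against 0.237 (Msx2-KO replicate 1) and 0.240 (Msx2-KO replicate 2). CpG-rich windows made up 5.54%, 5.19% and 5.29% of shared distal regions and 74.0%, 72.5% and 75.03% of shared promoter regions.

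A small number of genes were the address of many regions. Of 20696 protein-coding genes on these chromosomes, 5114 (24.7%) were nearest to at least 1 shared distal region, and 2809 of those (54.9%) to exactly 1. The 489 genes nearest to 5 or more (2.36% of genes) held 3450 regions, 31.6% of all, and 64 genes held 10 or more. Genes with many regions also had more ground around them. The bases nearest to a gene and more than 1500 from its start sites, called its territory, had a median of 42.1 kb over all genes and 386 kb over genes with 5 or more regions. Over all territory there were 4.57 regions per Mb. The promoter was a shared region in 56.1% of genes with a shared distal region, 39.0% of genes with none and 75.3% of genes with 5 or more.

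The 10 genes with the most regions were led by Efnb2 (ephrin-B2, a membrane ligand of Eph receptors) with 25, Pik3r1 (the regulatory subunit of phosphoinositide 3-kinase) with 20 and Tbl1xr1 (a subunit of nuclear corepressor complexes) with 19. Efna5 (another ephrin) and Gata3 (a factor of the inner root sheath lineage) had 18 each, Adgrl2 (an adhesion receptor), Myc and Sox9 had 17 each, and Cited2 (a cofactor of CBP/p300) and Flrt3 (an adhesion protein) had 16 each. Their density was 7.24 to 20.8 regions per Mb of territory, highest for Pik3r1. All 25 of Efnb2 lay downstream of its start, from 1.84 to 1462 kb, and its region in intron 1 at 21.2 kb had 33, 32 and 69 tags in Msx2-WT, Msx2-KO replicate 1 and Msx2-KO replicate 2. All 19 of Tbl1xr1 lay upstream, between 113 and 808 kb. All 16 of Flrt3 lay in introns of Macrod2, the gene that surrounds it, from 1034 kb upstream to 113 kb downstream.

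Myc, the growth-promoting factor that lies in a gene desert known for distant enhancers, had 10 regions upstream and 7 downstream, from −531 to +480 kb, all intergenic. Its strongest in Msx2-WT were at −366 kb (54, 22 and 18 tags) and −71.7 kb (52, 16 and 39). Gata3 had all 18 downstream, from 44.8 to 1097 kb, with 46, 18 and 30 tags at 391 kb and 34, 21 and 47 at 304 kb. At both genes the order of regions by tags differed between libraries.

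HFSC transcription factor genes were dense in these regions. Of 13 listed genes 12 were nearest to at least 1, Tbx1 being the exception, and together they held 87 regions, 14.6 per Mb of territory against 4.57 over all genes. Sox9, the factor that establishes the HFSC lineage, had 17, all intergenic, 7 upstream from −774 to −120 kb and 10 downstream from 29.0 to 351 kb. Its region at −161 kb (chr11:112620412-112621792) had 19, 15 and 37 tags, whereas the one at −642 kb had 27, 4 and 12. Over its 17 regions the tags ran from 7 to 27 in Msx2-WT (median 16), 3 to 15 in Msx2-KO replicate 1 (median 6) and 5 to 37 in Msx2-KO replicate 2 (median 16).

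Nfib had 15 regions, 6 in its own introns and 9 outside, from −135 to +465 kb, and its strongest in Msx2-WT, at −7.39 kb, had 56, 14 and 35 tags. In both Msx2-KO libraries the 221.7 kb region had more, 17 and 40. Foxc1, a factor of bulge quiescence, had 10, of which 5 lay within 31.5 kb upstream and 5 in introns 7 and 9 of its neighbour Gmds. The Foxc1 region at +148.8 kb in Gmds intron 7 had 32, 16 and 25 tags. Trp63 had 7, of which 4 lay in its intron 4 between 24.3 and 48.04 kb, and the region at −59.5 kb had 42, 11 and 39 tags. Foxp1 had 8 regions, Nfatc1 7, Tcf7l2 6, Klf5 and Runx1 5 each, Lhx2 4, Tcf7l1 2 and Nfix 1. Of the 7 at Nfatc1, the factor that restrains bulge cell division, 3 were in its own introns, the strongest of the 7 in Msx2-WT at 52.3 kb with 43, 10 and 27 tags. In the Msx2-KO libraries the maxima of 17 and 34 tags were at other Nfatc1 regions.

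**Figure D4:**
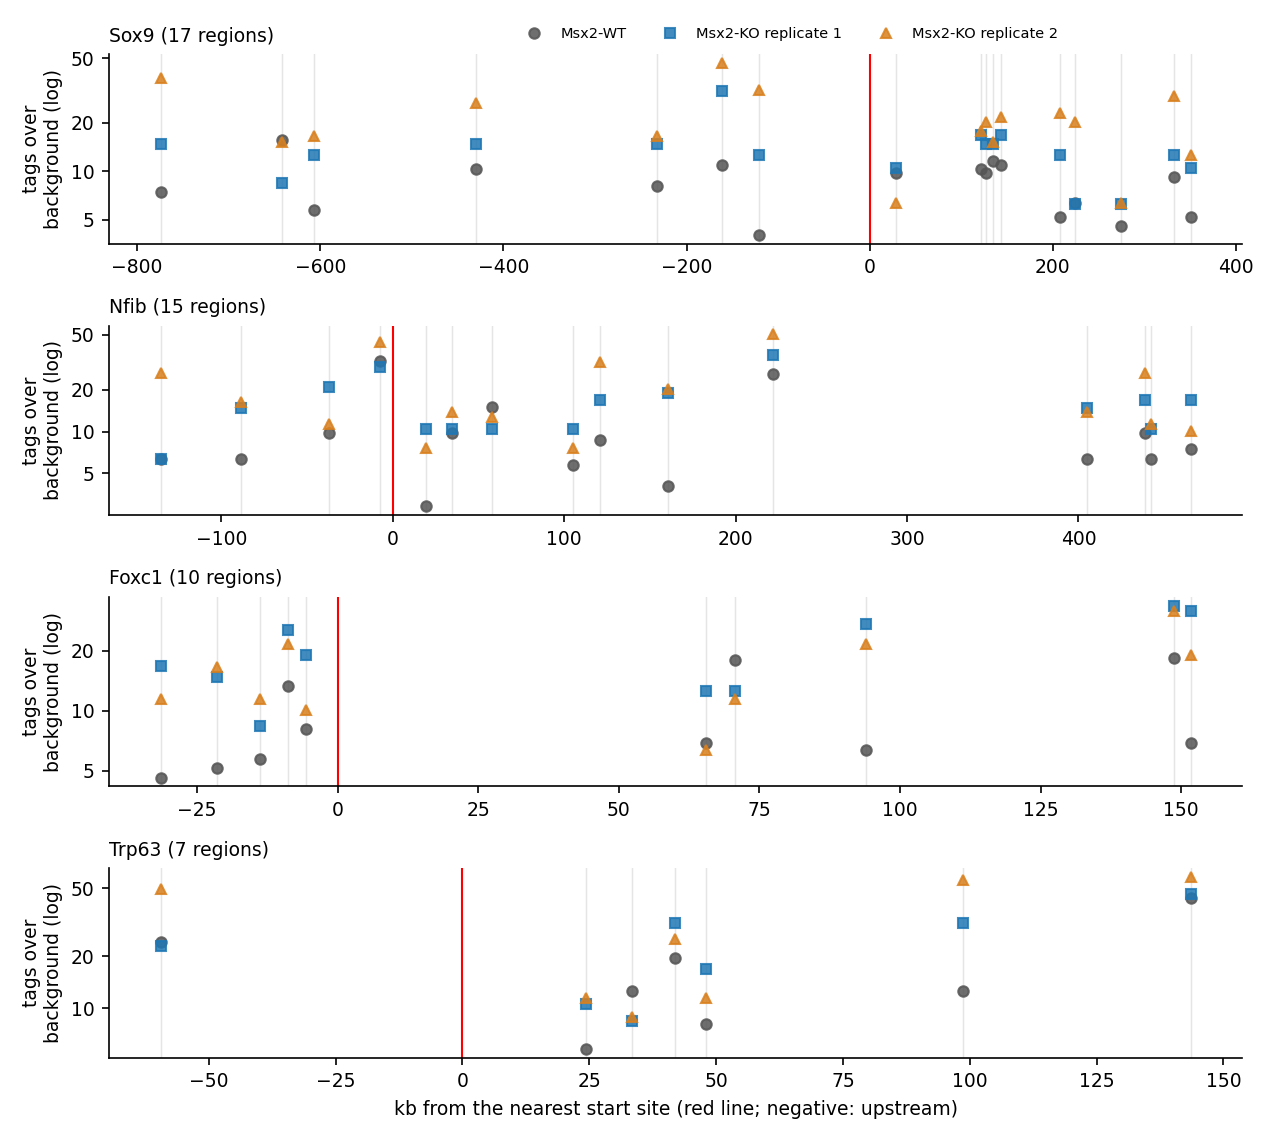
Tags over library background (log axis) of every shared distal region nearest to Sox9 (17), Nfib (15), Foxc1 (10) and Trp63 (7), by distance in kb from the nearest start site of the gene (red line), 1 symbol per library. Sox9 regions spread from −774 to +351 kb on both sides of the gene; values are not scaled between libraries, and Msx2-WT points lie lowest at most regions.

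Bulge marker genes each had at least 1 region, 10 of 10 genes with 33 regions and 21.7 per Mb. Postn (periostin, a matrix protein) had 6, Cd34 and Itga6, which encode the surface proteins of the sort, had 5 each, and Bmp6 4. Col17a1, the hemidesmosome collagen, had 3, with 30, 11 and 12 tags at −5.91 kb. Krt15, the bulge keratin, had 1, at 5.74 kb downstream, with 15, 5 and 11 tags. Lgr5, the receptor that marks cycling and lower bulge cells, had 2, at −93.6 and −105 kb, with 12, 8 and 18 and with 9, 18 and 16 tags. Genes of epidermal differentiation held 6 regions at 5 of 10 genes (50%, against 24.7% of all genes). The list had only 0.357 Mb of territory and so 16.8 per Mb, above the 14.6 of the HFSC transcription factors. Krtdap had 2 regions, and Grhl3, Ivl, Lor and Sbsn had 1 each. The suprabasal keratin genes Krt1 and Krt10 had none.

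Signalling and adhesion lists held 11.6 to 14.9 regions per Mb. Of 13 TGF-beta pathway genes 12 had at least 1, 35 regions in all, 11.6 per Mb. Smad7, the inhibitory SMAD, had 8, Ltbp1, which anchors latent TGF-beta in the matrix, had 7, and the receptor gene Tgfbr2 had 6. Tgfbr1, the type I receptor, had 1, in intron 8 at 21.2 kb from its nearest annotated start (chr4:47406884-47407854), with 28, 19 and 26 tags. Of 16 Wnt pathway genes 13 had at least 1, with 32 regions and 14.9 per Mb, led by the secreted inhibitors Dkk3 with 5 and Sfrp1 with 4. Of 20 adhesion and matrix genes 17 had at least 1, with 43 regions and 11.7 per Mb, led by Dsp (desmoplakin) and Timp3 (a metalloproteinase inhibitor) with 6 each. Of the 6 at Dsp 4 were in its introns, the strongest at 11.4 kb with 52, 15 and 25 tags, and all 6 at Timp3 were in introns of Syn3, which surrounds it.

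Genes of the AP-1 factors themselves held 16 regions at 6 of 9 genes, 18.3 per Mb. Fos had 5, with 58, 16 and 49 tags at −18.5 kb and 37, 14 and 39 at −21.8 kb. Junb had 1, at 2.24 kb, with 47, 20 and 37 tags. Fosl2 had 4 and Jun 3.

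Markers of other cell types served as the check of the sort. Leukocyte markers had 3 regions at 2 of 8 genes (3.56 per Mb), dermal fibroblast markers 5 at 2 of 8 (2.53 per Mb) and melanocyte markers 12 at 5 of 8 (3.07 per Mb), all below the 4.57 of all genes. Endothelial markers had 19 at 6 of 8 genes (8.86 per Mb), of which 11 were nearest to Cdh5 (VE-cadherin), between 73.3 and 608 kb upstream. By the share of genes with at least 1 region, none of these lists was below all protein-coding genes. The shares were 25% (leukocyte), 25% (dermal fibroblast), 62.5% (melanocyte) and 75% (endothelial), against 24.7%. Density also depends on territory, since 2155 kb of the 3.906 Mb of the melanocyte list belonged to Tyrp1. No leukocyte marker promoter was shared by all 3 libraries, and 1 of 8 endothelial, 2 of 8 melanocyte and 2 of 8 dermal fibroblast marker promoters were, against 9 of 13 for the HFSC transcription factors and 8 of 10 for the bulge markers. Over all protein-coding genes the share was 43.2%, and in the Wnt and TGF-beta lists 11 of 16 and 10 of 13 promoters were shared. The list members were chosen with earlier results of these data known, and the nearest gene need not be the one a region acts on.

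The targeted gene kept an open promoter in the libraries labelled Msx2-KO. Msx2 (chr13:53466884-53473074, minus strand) had a shared promoter region with 15 tags in Msx2-WT, against 9 (Msx2-KO replicate 1) and 16 (Msx2-KO replicate 2), and the insertion of a cassette leaves the promoter in place, so a promoter peak does not check the genotype. It was nearest to 3 shared distal regions, all intergenic and upstream, at −99.97 kb (7, 6 and 10 tags), −208 kb (12, 6 and 11) and −212 kb (7, 5 and 15). These were weak regions, below the median number of tags of shared distal regions in Msx2-WT, and 1 of the 3 passed a q-value of 0.01 in every library.

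Of the 5 strongest shared distal regions, 4 were near copies of each other. Ranked by the lowest percentile of their tag number over the 3 libraries, these 4 were nearest to Pdia4, a protein disulfide isomerase of the endoplasmic reticulum, on chromosome 6. The first (chr6:47752690-47753608) had 218, 194 and 344 tags and the second (chr6:47763121-47764096) 220, 184 and 335. These 4 shared between 74.4% and 97.9% of their 20-base words with each other. Their local backgrounds, 21.9 to 37.3 tags in Msx2-WT, were far above the 1.74 of the library. The fifth was nearest to Scaf8, with 213, 192 and 310 tags, overlapped the RefSeq pseudogene Pisd-ps2 and shared no words with the others. Reads from near-identical copies cannot be placed with certainty, and these values are uncertain for that reason.

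Of the widest regions, the first 2 also overlapped repeated genes or pseudogenes. The widest, 5669 bases (chr17:39843034-39848702), overlapped Rn18s-rs5, a copy of the 18S ribosomal RNA gene, and the second, 4433 bases on chromosome 1, overlapped the pseudogenes Gm10222 and Gm10925. Next in width were regions in intron 9 of Arhgef28 (22, 12 and 26 tags) and in intron 1 of Adgrl2 (33, 16 and 37). Transfer RNA genes were another class, looked at after the values were seen. Of 386 RefSeq tRNA genes on these chromosomes 112 lay in 68 shared distal regions, whose medians of 12.7, 23.1 and 27.8 tags over background were above the 8.05, 14.7 and 18.98 of all shared distal regions.

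The comparison of genotypes asked which shared distal regions set Msx2-WT apart from both Msx2-KO libraries. Tags over background were first scaled so that the median ratio over all shared regions was 1, which removed a log2 shift of 0.95 (replicate 1) and 1.201 (replicate 2) in the Msx2-KO libraries. A region lost altogether in either genotype is not among them by the way they were chosen. Of 10879 regions with a tag number in all 3 libraries, 854 (7.85%, 95% Wilson interval 7.36 to 8.37) were at least 2-fold higher in both Msx2-KO libraries, and over all 19039 shared regions the share was 5.74%. A total of 673 (6.19%, 5.75 to 6.65) were at least 2-fold lower, against 5.45% of all shared regions. Between the Msx2-KO libraries, 1373 regions (12.6%) were 2-fold apart in either direction, against 10.2% of all shared regions. The shares at shared promoter regions were 2.93%, 4.47% and 7.05%. The share between the Msx2-KO libraries counts a single pair in either direction, while the other shares require both Msx2-KO libraries on the same side. Taken as single pairs at shared distal regions, Msx2-KO replicate 1 was 2-fold higher than Msx2-WT in 14.6% and lower in 11.5%. For replicate 2 these were 12.7% and 12.6%. The SD of the log2 ratio was 0.89 for Msx2-KO replicate 1 over Msx2-WT, 0.88 for replicate 2 over Msx2-WT and 0.63 between the replicates.

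Without scaling, 4680 regions were higher and 36 lower, so the balance of directions rests on the scaling. With the deposited fold enrichment in place of tags, 329 were higher and 116 lower. Leaving out Msx2-KO replicate 1 gave 1377 higher and 1370 lower, and leaving out Msx2-KO replicate 2 gave 1586 and 1256.

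Regions higher in Msx2-KO were led by one 359 kb from Cps1, an enzyme of the urea cycle, with 8 tags in Msx2-WT (95% Poisson interval 3.45 to 15.8), against 35 (24.4 to 48.7) in replicate 1 of Msx2-KO and 71 (55.5 to 89.6) in replicate 2, scaled log2 differences of 3.05 and 3.09. Next were a region 183 kb from Ptprc, the leukocyte antigen CD45 (5, 18 and 33 tags, 2.77 and 2.66), and one in an intron at 44.4 kb from Man2a1, a Golgi mannosidase (8, 26 and 78 tags, 2.62 and 3.22). A region 39.2 kb from Msx1 (chr5:37784870-37785910), a homeobox gene of the same family as Msx2, had 6 tags in Msx2-WT (2.20 to 13.1), against 24 (15.4 to 35.7) and 38 (26.9 to 52.2) in the Msx2-KO libraries, with log2 differences of 2.92 and 2.60. The fifth, near Mgam, an intestinal glucosidase, had 7, 23 and 44 tags. The Msx2-WT values of these 5 did not pass a q-value of 0.01. At the Cps1 region the local background was 1.74 tags in Msx2-WT, against 3.03 (Msx2-KO replicate 1) and 6.60 (Msx2-KO replicate 2), above the library backgrounds of 0.476 and 0.790.

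Regions lower in Msx2-KO were led by one in an intron at 47.6 kb from Ranbp3l, with 71 tags in Msx2-WT (55.5 to 89.6), against 3 (0.619 to 8.77) and 7 (2.81 to 14.4) in the Msx2-KO libraries, log2 differences of −3.64 and −3.41. A region in an intron near Peak1, a cytoskeletal pseudokinase (chr9:56223572-56223959), had 323, 15 and 36 tags, and one near Arhgap21 had 239, 13 and 32. A pair of neighbouring regions near H60c, a ligand of the NKG2D receptor, had 209, 10 and 22 and 147, 10 and 18 tags. Their Msx2-WT windows were 100% repeat-masked, and their local backgrounds there were 67.9 and 61.8 tags. The Msx2-WT local backgrounds at the Peak1 and Arhgap21 regions were 14.4 and 9.67 tags, also above the 1.74 of the library. In Msx2-KO replicate 1 the Ranbp3l peak and both H60c peaks did not pass a q-value of 0.01.

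The regions of the listed genes are set beside the 7.85% higher and 6.19% lower of all shared distal regions. Of the 87 at HFSC transcription factor genes 2 were higher and 7 lower, and the medians of their log2 differences were −0.08 and −0.22, against 0.07 and 0.02 over all shared distal regions. The 7 were 2 at Runx1 and 1 each at Foxc1, Foxp1, Nfib, Sox9 and Trp63, such as the Foxp1 region in its intron at 46.3 kb (38, 5 and 8 tags). The 2 were an Nfib region in its intron at 160.6 kb (7, 9 and 16) and a region in intron 3 of Tcf7l1, a Wnt-repressing factor (18, 21 and 51). Of 33 at bulge markers 3 were higher and 2 lower. The higher ones were the 2 Npnt regions at 85.5 kb (21, 36 and 74 tags) and 90.1 kb (15, 52 and 72) and 1 at Fgf18, the telogen growth factor. The lower ones were near Itga6 (45, 11 and 15) and Cd34 (31, 5 and 15).

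In the signalling, adhesion, AP-1 and epidermal lists the counts were small, beside the same 7.85% and 6.19% of all shared distal regions. Of the 35 at TGF-beta pathway genes 2 were higher, at Smad7 (7, 9 and 19 tags) and Tgfbr2 (7, 9 and 17), and 2 lower, at Ltbp1 (27, 7 and 13) and Tgfb3 (22, 3 and 10). The single Tgfbr1 region was not among them. Of 31 at Wnt genes with tag numbers 1 was higher, at Sfrp1 (13, 16 and 34), and 1 lower, in an intron of Wnt4 (57, 8 and 19). Of 43 at adhesion and matrix genes 1 was higher and 2 were lower, one of these at Pkp1, a desmosome plaque protein (38, 8 and 15). Of 16 at AP-1 genes 2 were lower, both at Fosl2. Of 6 at epidermal differentiation genes 1 was lower, at Grhl3 (50, 6 and 20).

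Endothelial marker genes had 5 of 19 regions higher and none lower, beside 7.85% and 6.19% of all shared distal regions, 4 of them near Cdh5 and 1 near Sox17, with median log2 differences of 0.92 and 0.58. The Cdh5 region at −524 kb had 21, 32 and 50 tags. The part of endothelial cells in this was not tested; 1 of 8 endothelial marker promoters was shared by all libraries. Melanocyte markers had 1 of 12 higher and 1 lower, dermal fibroblast markers 1 of 5 higher and leukocyte markers 1 of 3 higher, the Ptprc region above. These lists hold too few regions to read against the 7.85% and 6.19%.

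The difference between genotypes moved with base composition. Shared distal regions were split into quartiles by the mean G+C content of their 3 summit windows. The median log2 ratio of Msx2-KO replicate 1 to Msx2-WT was 0.34, 0.18, −0.08 and −0.19 from the lowest to the highest quartile, and that of replicate 2 was 0.30, 0.11, −0.06 and −0.23. Between the Msx2-KO libraries it was 0.11, 0.07, 0.08 and 0.02. The share of regions 2-fold higher in both Msx2-KO libraries went from 14.3% to 8.42%, 5.49% and 3.12%, and the share 2-fold lower from 2.91% to 5.54%, 6.73% and 9.58%. Distance moved in parallel. Regions over 100 kb from a start site were higher in 12.8% and lower in 3.96%, and regions up to 10 kb away in 4.17% and 8.40%, with a median G+C content of 46.8% and 51.7%. The part of base composition in the difference was not tested, and since the batches follow the genotypes it cannot be told apart from either.

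**Figure D5:**
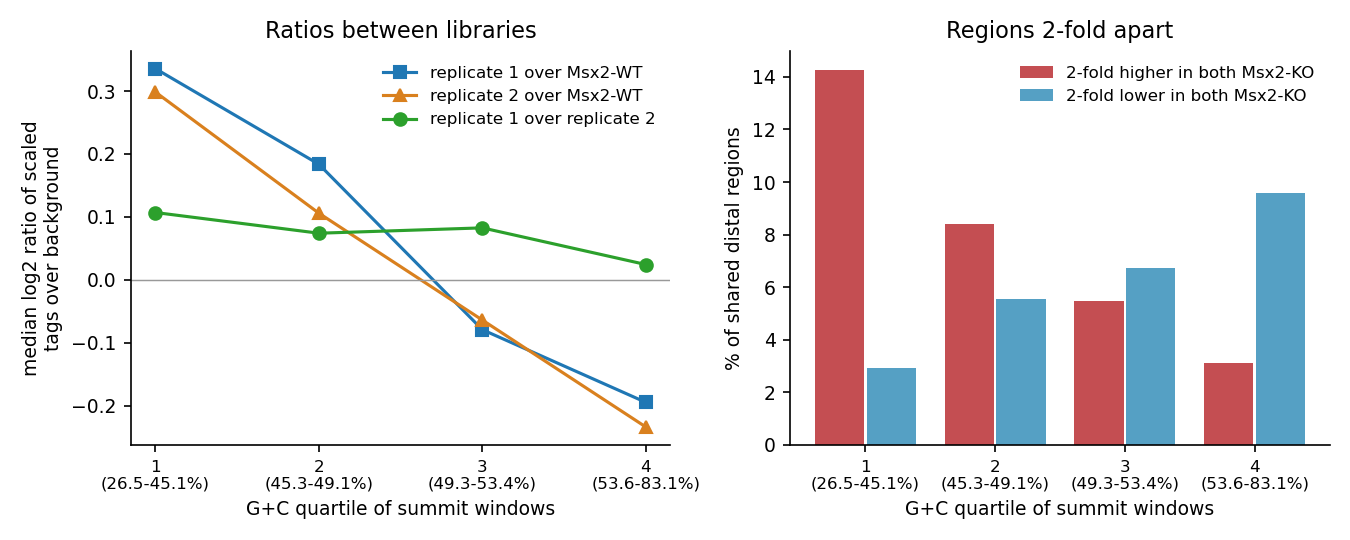
Left, median log2 ratio of scaled tags over background between libraries, by quartile of G+C content of the summit windows. Right, percent of shared distal regions at least 2-fold higher or lower in both Msx2-KO libraries than in Msx2-WT, by the same quartiles. Both ratios to Msx2-WT fall from about 0.3 to −0.2 across the quartiles, and the ratio between the Msx2-KO libraries stays between 0.02 and 0.11.

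Regions with a homeobox word, and those with several other words, were more often higher in Msx2-KO. Of 407 regions with the MSX-type word CAATTA in the summit window of all 3 libraries, 16.2% were 2-fold higher and 1.72% lower, against 7.15% higher among 9212 regions with it in no window. The word is rich in A and T, and the split was therefore repeated within the quartiles of G+C content. From the lowest to the highest quartile, 22.8%, 13.5%, 6.58% and 8.82% were higher with the word and 13.6%, 8.06%, 5.32% and 2.96% without it. The 2 upper quartiles held only 76 and 34 regions with the word. The LHX-type word TAATTA, which differs from it by 1 letter, gave 15.9% higher and 1.88% lower among 372 regions, against 7.10% and 6.66% among 9488 without it. From the lowest to the highest quartile, 21.4%, 11.5%, 5.88% and 9.52% were higher with it and 13.2%, 8.14%, 5.31% and 3.09% without it, where the 2 upper quartiles held 51 and 21 regions with the word. Several other words showed the same direction, and several the opposite. With the word in all windows against none, 11.5% against 6.65% were higher for NFY, 10.5% against 6.996% for NFAT and 10.3% against 6.87% for SOX, and 15.8% of 19 regions against 7.83% for SMAD. These 4 words were not split by G+C content. Fewer were higher with the word for SP/KLF, 5.02% of 578 against 8.43%, and GRHL, 5.41% of 148 against 7.96%. The same held for CTCF (3.57% of 112 against 8.04%), ETS (4.41% of 68 against 7.95%) and NFI (2.86% of 35 against 7.90%). Within the highest quartile, which held 468 of the 578, 4.27% were higher with the SP/KLF word and 2.88% without it. With the AP-1 word in all 3 windows, 7.40% of 770 regions were higher and 5.19% lower, close to the 8.01% and 5.86% of regions without it. Since the windows are centred on summits of the same libraries that are compared, these shares are descriptions. Requiring a word in all 3 windows also favours regions whose summits lie close together, and this was not separated from the word.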

How the data were processed

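Omni-ATAC-seq was analysed from 1 narrowPeak list per library. The authors aligned reads to GRCm38 with BWA and called peaks in each library by itself with MACS2, with duplicate reads retained. Versions are not given in the sources used here. The authors deposited a fold enrichment (ratio of the tag number plus 1 to the local background plus 1), −log10 p and −log10 q values for each peak. The deposited score column was not used. The lists stop at a p-value of 0.01 and hold 104386 lines in Msx2-WT, against 36508 (Msx2-KO replicate 1) and 83322 (Msx2-KO replicate 2), of which 32.2%, 53.3% and 49.3% passed a q-value of 0.01.

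The whole tag number at each summit was solved from the fold and −log10 p (tolerance 0.002 plus 0.0002 of the value) and found for 99.9% of lines in each list. Of the shared distal regions, 32 lacked it in at least 1 library. The commonest background stood for the depth of a library, which the lists do not give. The recovery was tested on simulated data and returned the exact number for 100% of 5000 simulated peaks per depth. Duplicates are not independent molecules, so intervals cover counting error only.

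In each merged region the peak with the largest −log10 p represented its library. Start sites, introns and exons came from the basic GENCODE M21 annotation of GRCm38, and sequence, tRNA genes and pseudogenes from RefSeq GRCm38.p6. Groups follow the labels, and no p-values were computed. Shares carry 95% Wilson and tag numbers 95% exact Poisson intervals. The genotype comparison was a fold rule of 2, after scaling to the median over all shared regions.

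Named were Msx2 and Tgfbr1, list genes nearest to at least 1 region (values for at most 10 a list), the 10 genes with the most regions, the genes of the 5 strongest regions, and the 5 regions with the largest difference in each direction. Regions, lists, motifs and tests were chosen with earlier results of these data known. Alternatives were 2 score filters, a base common to all libraries, limits of 500 and 3000 bases, start sites of all gene types, summits in place of centres, X and Y added, a width limit, narrower summit windows, other measures and folds, and leaving out each library. Of the summit windows chosen for printing, 1 is not reported here and is left out of the motif counts over the windows shown. RNA-seq of the study was not used here. Python 3.11.15, pysam 0.24.0, numpy 2.4.6, scipy 1.17.1, pandas 2.3.3 and matplotlib 3.10.9 were used.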

Additional observations from a re-analysis of the deposited data

Results flagged for a closer look

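On chromosomes X and Y, which the autosomal set leaves out, 194 further distal regions held a peak of every library, 189 on X and 5 on Y. They were flagged as a signal outside the regions described, with no control for its level. Their median tags over background were 6.33 in Msx2-WT, against 14.7 (Msx2-KO replicate 1) and 17.1 (Msx2-KO replicate 2), beside 8.05, 14.7 and 18.98 on chromosomes 1 to 19.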

How the results depend on the processing

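The number of shared distal regions fell from 10911 to 6141 with peaks past a −log10 q of 2 and to 2459 past 5. Under these 2 filters the distal share of shared regions was 47.9% and 35.9% (57.2% without a filter), the intron share 40.1% and 36.4% (41.5%), the ratio of distal to promoter tags over background, as a mean of the libraries, 0.701 and 0.801 (0.599), the share of windows with AP-1 15.9% and 16.3% (14.6%), and the mean G+C content 50.7% and 51.6% (49.8%). The median distance was 36778 bases past a −log10 q of 2 (38849 without a filter).

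With a limit of 500 bases the distal share was 60.8%, the median distance 34630 bases and the mean G+C content 50.4%, and with 3000 bases they were 55.3%, 41302 bases and 49.6%. With start sites of all gene types the distal share was 52.8%, the intron share 42.9%, the distance 17265 bases and the G+C content 49.4%. A base common to all libraries gave a tag ratio of 0.629, and the deposited fold enrichment 0.730. In windows reaching 50 bases to either side, AP-1 stood at 7.97%.

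Leaving out each library in turn gave 11925 to 21193 regions, a distal share of 59.2% to 67.1%, an intron share of 41.0% to 42.2%, a median distance of 36743 to 42853 bases, a tag ratio of 0.487 to 0.589, AP-1 in 13.2% to 15.1% of windows and a G+C content of 48.7% to 49.6%. The 21193 regions were those without Msx2-KO replicate 1, the library with the fewest tags.

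Between genotypes, 854 regions were higher and 673 lower in Msx2-KO. The counts were 329 and 116 with the deposited fold enrichment, 4680 and 36 without scaling, 190 and 153 at 3-fold, and 376 and 289 past a −log10 q of 2 (6109 regions tested). Leaving out an Msx2-KO library gave 1377 to 1586 higher and 1256 to 1370 lower. Of 98 alternative values 50 moved beyond their margin and 48 did not, and the cause of each move was not tested. No paired analysis was possible because the labels mark no pairs between the genotypes. With 1 Msx2-WT library and a median of 7 tags per summit in Msx2-KO replicate 1, single regions cannot be called different.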
